A study of Mus musculus with 12 samples.

Results

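The miRNAs found in the nuclear RNA of 4 stages of mouse granulopoiesis are described here, from the stem and progenitor cells of the bone marrow to the mature granulocyte. A miRNA was kept when its assay could be named and its CT was under 30 in the nuclear sample of at least 1 stage. The CT is the PCR cycle at which the product of an assay crosses a fixed threshold, so a low CT means much template, and 1 cycle is a 2-fold difference at full efficiency. The table has 593 assays, 269 could be named, and 66 of these are the nuclear miRNAs described, 49 on array card A and 17 on card B.

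The study sorted cells from the bone marrow of C57BL/6 mice and measured miRNAs by TaqMan low density array RT-qPCR (TLDA RT-qPCR) in nuclear, cytoplasmic and whole cell RNA. The groups are LSK cells (Lin- Sca1+ cKit+, the gate of the hemopoietic stem cell and early progenitors), promyelocytes, myelocytes and granulocytes, in order of maturation, with no treatment and no altered allele. Each stage and fraction is 1 sample of 100 ng of RNA, 12 samples in all, of which the 4 nuclear samples are the subject, and the age of the mice and the number pooled were not given in the sources used here. The gates select on surface markers and so hold a range of maturation, and a nuclear fraction made by cell lysis keeps some cytoplasm and loses some nucleoplasm. With 1 sample per stage there is no replicate check, no test between stages was made, and every difference below compares 2 samples. The labels give the same mass of RNA for every sample, while the study's text presents the nuclear and cytoplasmic CT by the volume that equal numbers of cells yield, and which of these holds for the table is not known here. A CT may thus be per mass of RNA or per cell, and less miRNA per nucleus and more of other RNA cannot be told apart.

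A miRNA is cut from a hairpin transcript in the nucleus, exported, and trimmed in the cytoplasm to a mature strand of about the length of a PCR primer. The mature strand is loaded on an Argonaute protein and finds its target mRNAs mainly through bases 2 to 8 from its 5′ end, the seed. Mature miRNAs also occur in the nucleus, where Argonaute proteins are found as well, and some have been tied to the control of transcripts there. In granulopoiesis miR-223 is the best known miRNA of the maturing myeloid cell, while miR-126, miR-155 and miR-196b are known from stem and progenitor cells.

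Mature sequences from RefSeq (GRCm38.p6) were found for 48 of the 66 members, and they hold 33 different seeds. 8 of these seeds were shared by 2 or more members, 23 members in all. The sequences below are those on which the results turn, written 5′ to 3′ with the seed in capitals, and each is the mature arm of the hairpin gene named beside it. The first set is the seed family of miR-17, whose 6 members share every seed base and yet differed in their course through the stages.
miR-17 (Mir17, chr14:115043684-115043706, + strand): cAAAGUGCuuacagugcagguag
miR-20a (Mir20a, chr14:115044183-115044205, + strand): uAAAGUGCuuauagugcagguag
miR-106a (Mir106a, chrX:52742541-52742563, - strand): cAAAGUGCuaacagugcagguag
miR-20b (Mir20b, chrX:52742159-52742181, - strand): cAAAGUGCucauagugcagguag
miR-93 (Mir93, chr5:138165574-138165596, - strand): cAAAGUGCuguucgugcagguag
miR-106b (Mir106b, chr5:138165787-138165807, - strand): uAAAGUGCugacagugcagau
miR-17 and miR-106a differ at 1 of 23 positions, and miR-17 differs from miR-20a and from miR-20b at 2 of 23. How far assays for such near neighbours read each other was not tested.

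The second set holds 3 seed families whose unscaled nuclear CT was lowest in granulocytes, miR-16, miR-26 and miR-29, shown because their members moved alike.
miR-15b (Mir15b, chr3:69009775-69009796, + strand): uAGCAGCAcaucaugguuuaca
miR-16 (Mir16-2, chr3:69009918-69009939, + strand and Mir16-1, chr14:61631936-61631957, - strand): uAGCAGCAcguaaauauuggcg
miR-195 (Mir195a, chr11:70235062-70235082, + strand): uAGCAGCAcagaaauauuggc
miR-26a (Mir26a-1, chr9:119031811-119031832, + strand and Mir26a-2, chr10:126995543-126995564, + strand): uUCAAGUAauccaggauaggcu
miR-26b (Mir26b, chr1:74394324-74394344, + strand): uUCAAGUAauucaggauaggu
miR-29a (Mir29a, chr6:31062673-31062694, - strand): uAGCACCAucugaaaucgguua
miR-29c (Mir29c, chr1:195037600-195037621, + strand): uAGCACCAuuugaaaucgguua
miR-29a and miR-29c differ at 1 of 22 positions and miR-26a and miR-26b at 2 of 21, while miR-15b and miR-16 share the seed and differ at 8 of 22. The miR-19 pair, cut from the same transcript as miR-17, differs at 1 of 23.
miR-19a (Mir19a, chr14:115044048-115044070, + strand): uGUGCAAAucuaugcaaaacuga
miR-19b (Mir19b-1, chr14:115044358-115044380, + strand and Mir19b-2, chrX:52741991-52742013, - strand): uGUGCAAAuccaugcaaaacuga

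The third set holds 3 miRNAs that gained at every step towards the granulocyte, miR-223, miR-142-3p and miR-139-5p, and 3 that fell away from LSK.
miR-223 (Mir223, chrX:96242884-96242905, + strand): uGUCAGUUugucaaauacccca
miR-142-3p (Mir142, chr11:87756903-87756925, + strand): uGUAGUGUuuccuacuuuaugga
miR-139-5p (Mir139, chr7:101475382-101475403, + strand): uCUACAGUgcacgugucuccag
miR-126-3p (Mir126a, chr2:26591402-26591423, + strand): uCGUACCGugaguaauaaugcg
miR-155 (Mir155, chr16:84714143-84714165, + strand): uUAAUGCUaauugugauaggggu
miR-196b (Mir196b, chr6:52230129-52230150, - strand): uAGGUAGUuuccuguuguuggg
The last set holds 3 of the miRNAs that the study singled out as nuclear candidates. In its single RT-qPCR assays miR-690 and miR-706 were then found enriched in nuclei against control miRNAs, and miR-135a* was not.
miR-690 (Mir690, chr16:28599940-28599961, - strand): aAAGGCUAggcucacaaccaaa
miR-706 (Mir706, chr6:120034290-120034311, - strand): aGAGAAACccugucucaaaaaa
miR-135a* (Mir135a-1, chr9:106154179-106154200, + strand): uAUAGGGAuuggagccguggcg
The motif AGUGUU, known as a nuclear import element at the 3′ end of miR-29b, was searched on the mature strand only. Among the 48 matched members it occurred in 1, miR-142-3p, where it overlaps the seed, and in 0.715% of the 1679 mature mouse sequences. The median GC content was 43.2% for the matched members and 52.2% for all mature sequences.

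The number of assays under the undetermined value of 40 lay between 199 and 229 in the nuclear samples. The stage labels were set against marker miRNAs. In nuclear RNA the granulocytic miR-223 and miR-142-3p were lowest in unscaled CT in granulocytes. The progenitor miRNAs miR-126-5p, miR-125b-5p and miR-99b, which are not members, were lowest in LSK. In order of maturation miR-126-5p was at 30.93, 32.72, 36.53 and 31.62, so its granulocyte value lay near that of LSK. miR-125b-5p was at 30.95, 34.99, 33.17 and 33.57, and miR-99b was at 34.04 in LSK and listed at 40 at each later stage. Of the markers of other cell types, erythroid miR-486 was listed at 40 in all 4 nuclear samples, while in whole cell RNA it was at 40, 40, 31.46 and 31.74 in order of maturation, and lymphoid miR-181a stayed between 32.30 and 35.49. The other lymphoid marker, miR-150, is itself a nuclear member at 29.89, 32.37, 29.82 and 29.56 in order of maturation, and its whole cell CT was 25.13, 28.78, 25.60 and 25.84 in the same order. Its course, high CT in promyelocytes and lower CT on either side, runs beside that of several members below, and the part of lymphoid cells in those results was not tested.

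In what follows 4 values given in a row are the nuclear CT of LSK, promyelocytes, myelocytes and granulocytes, 1 sample each. On the unscaled CT more members were under 30 at both ends of maturation than in the middle. 45 members were under 30 in LSK, 40 and 37 in the pair of middle stages and 57 in granulocytes. The median member CT was 28.91, 29.24, 29.11 and 28.05 in the same order. 44 of the 66 had their lowest CT in granulocytes, 12 in promyelocytes, 10 in LSK and 0 in myelocytes. The same tally was not made over all assays, and the whole table also gained at the last step, as given below. The members' tally depends on the scaling: centred on the members under 30 at all 4 stages, 28 were most abundant in granulocytes, 18 in promyelocytes, 12 in LSK and 8 in myelocytes. With each card centred on its own, 20 were most abundant in granulocytes and 26 in LSK, and scaled to the last 3 assays of card B, 53 in granulocytes. 29 members were under 30 at all 4 stages, 7 at 3, 12 at 2 and 18 at 1 stage only. Of those 18, 11 were under 30 in granulocytes alone, namely miR-135b, miR-148a, miR-25, miR-301a, miR-301b, miR-30a, miR-322, miR-340-3p, miR-652, miR-744 and miR-30e*. The 4 seen under 30 in LSK alone were miR-126-3p, miR-155, miR-196b and miR-20b, and the 3 seen in promyelocytes alone were miR-494, miR-696 and miR-760.

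The order of the members by nuclear CT was most alike in the most mature cells. Spearman's rho of member CT was 0.953 between myelocytes and granulocytes (64 miRNAs), 0.837 between LSK and promyelocytes (64) and 0.739 between promyelocytes and myelocytes (63). Between LSK and granulocytes it was 0.632 (63). These are descriptions across miRNAs that share their samples and their cards. From LSK to granulocytes 38 members were higher by 2-fold or more and 9 lower, with a median log2 change of 1.44, written here as the earlier CT minus the later CT. Of the 63 under 40 in both samples 58.7% were higher and 12.7% lower, beside 44.6% and 17.9% of all 168 such assays. The CT limit favours this direction, and the tally by stage above, through the 11 members under 30 in granulocytes alone. Of the 39 members under 30 in both samples 19 were higher and 3 lower. The median was 0.38 after centring on the members (23 higher, 16 lower), turned to -0.24 after centring each card (16 and 23) and was 2.59 when scaled to the last 3 assays of card B (53 and 5). On the unscaled CT most courses were not steady: 23 members went up, down and up again, 22 went down and then up at both later steps, and 10 went up at every step. Those 10 were miR-223, miR-16, miR-15b, miR-195, miR-142-3p, miR-139-5p, miR-149, miR-340-5p, miR-93 and miR-106b. Only miR-155 and miR-699 went down at every step, and only miR-106a, miR-191 and miR-92a stayed within 1 cycle over all 4 samples.

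**Figure D1:**
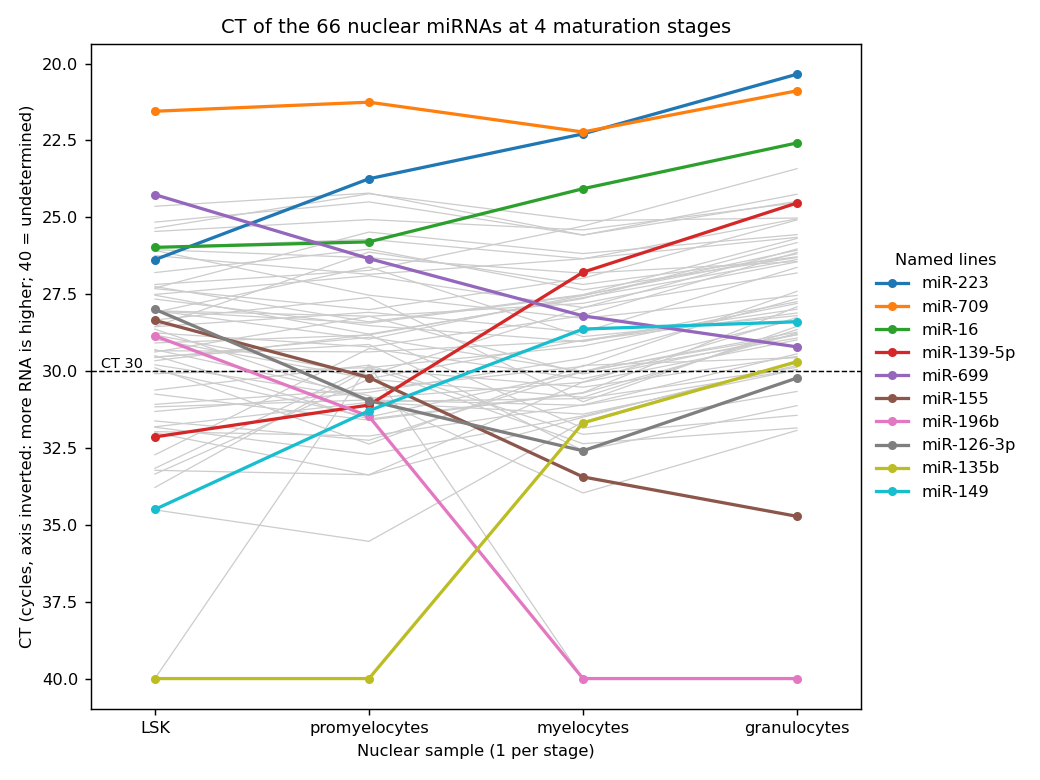
Nuclear CT of the 66 miRNAs (grey lines) at the 4 stages, 1 sample per stage, on an inverted axis so that more RNA is higher, with 10 miRNAs in colour and the CT limit of 30 dashed. miR-223 moved from 26.38 to 20.35 and overtook miR-709, while miR-155 went from 28.35 to 34.72 and miR-196b reached 40, the value of an undetermined well.

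From LSK to promyelocytes the nuclear miRNAs changed in both directions with little shift of the whole. 13 members were higher by 2-fold or more, 17 were lower and 36 lay between, and the median log2 change was 0.19. Among the 64 members under 40 in both samples 18.8% were higher and 26.6% lower, beside 22.9% and 27.7% of all 166 assays under 40 in both, so the members' shares were near the background. The median was -0.071 when each sample was centred on the median change of the members under 30 at all 4 stages, -0.36 when each card was centred on its own and -0.050 when scaled to the last 3 assays of card B, whose mean was found by a fit to lie behind the study's list of whole cell changes. These scalings add -0.26 (median), -0.22 on card A and -1.12 on card B (card) and -0.24 (reference) to each log2 change, and the counts became 10 higher and 21 lower, 8 and 23, and 10 and 21 in that order.

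The 4 largest losses at this step were those of miR-126-3p, miR-196b, miR-150 and miR-146a, of which the first pair are members through LSK alone, so that the CT limit favours their fall. miR-126-3p, which acts in the quiescence of stem cells, was at 27.99 in LSK and 30.96 in promyelocytes, a log2 change of -2.97. miR-196b, encoded in a Hox gene cluster, went from 28.85 to 31.47 (-2.62). miR-150 changed by -2.48, and miR-146a, a brake on NF-kB signalling, went from 28.64 to 30.99 (-2.36). All 4 kept a change below -1 under each of the 3 scalings. The 4 with the largest gain among members under 35 in both samples started far above the limit. miR-15b*, the passenger strand of the miR-15b hairpin, was at 33.78 in LSK and 29.93 in promyelocytes (3.85). miR-27a was at 32.72 and 29.27 (3.46), and miR-494 was at 33.16 and 29.87 (3.29). As miR-494 is a member through promyelocytes alone, the CT limit favours its rise. miR-149 was at 34.50 and 31.29 (3.21). The LSK CT of each of these 4 was above 32.

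From promyelocytes to myelocytes the members divided, and among members under 35 in both samples the largest rise and the largest fall of the 3 steps were found here. 22 members were higher by 2-fold or more, 19 lower and 25 between, with a median log2 change of -0.038. Of the 63 under 40 in both samples 33.3% were higher and 17 members lower, beside 26.1% and 30.6% of all 157 such assays. The balance depended on the scaling: the median was 0.46 after centring on the members, 0.069 after centring each card and 1.37 on the reference assays, which add 0.50, -0.47 (card A) or 0.97 (card B), and 1.41 to each change. Centring on the members gave 30 higher and 13 lower, centring each card 14 and 21, and the reference scale 36 and 8.

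miR-139-5p, known as a growth suppressor in several tumours, made the largest gain among members under 35 in both samples. It was at 32.14, 31.10, 26.79 and 24.53. It thus crossed from above the limit in the early pair of stages to far under it in the late pair, and its step to myelocytes was 4.32, a 19.96-fold rise, which was 28.3-fold after centring on the members, 14.5-fold after centring each card and 53.0-fold on the reference assays. miR-652, a member through granulocytes alone, followed at 33.23, 33.37, 30.36 and 28.26 (step to myelocytes 3.02). miR-149 gained 2.65 and miR-150 gained 2.56 at this step. Among members under 35 in both samples the 4 largest losses were those of miR-805, miR-374, miR-155 and miR-20b, of which the last pair are members through LSK alone. miR-374 was at 28.34, 27.61, 30.999 and 28.55, low in CT in the first pair of stages, highest in myelocytes (-3.39) and back near its LSK value in granulocytes. miR-805 was at 29.54, 29.14, 32.59 and 31.12, a change of -3.45 to myelocytes. It is an entry since removed from miRBase, and its values say only what that assay read.

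From myelocytes to granulocytes nearly all nuclear miRNAs were higher. 49 members were higher by 2-fold or more, 2 were lower and 15 lay between, and the median log2 change was 1.34. Of the 64 under 40 in both samples 76.6% were higher and 3.12% lower, beside 60.8% and 7.23% of all 166 such assays. The rule itself raises the members' share here, since all 11 members under 30 in granulocytes alone are among those higher. Of the 37 members under 30 in both samples 25 were higher and 1 lower. The table as a whole moved the same way: the median was 1.24 over all 166 assays and 1.43 over the 77 named assays that are not members. Centring on the members, which adds -1.30, removed it by construction and left 4 higher and 7 lower with a median of 0.046, and centring each card left 4 and 4 with a median of 0.14. The reference assays moved little between these samples, so that scaling adds only -0.021 to each change, and on that scale the median was 1.32.

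Within this common shift miR-29c gained most, from 30.70 to 27.91 (2.79). miR-374 gained 2.45, miR-340-5p went from 29.85 to 27.41 (2.44) and miR-126-3p from 32.59 to 30.23 (2.37). Each of these 4 stayed above 0 under all 3 scalings. At the other end only miR-155 (-1.28) and miR-699 (-1.01) were lower. miR-690 at 0.08 and miR-149 at 0.24 came next in rank and were nearly level.

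**Figure D2:**
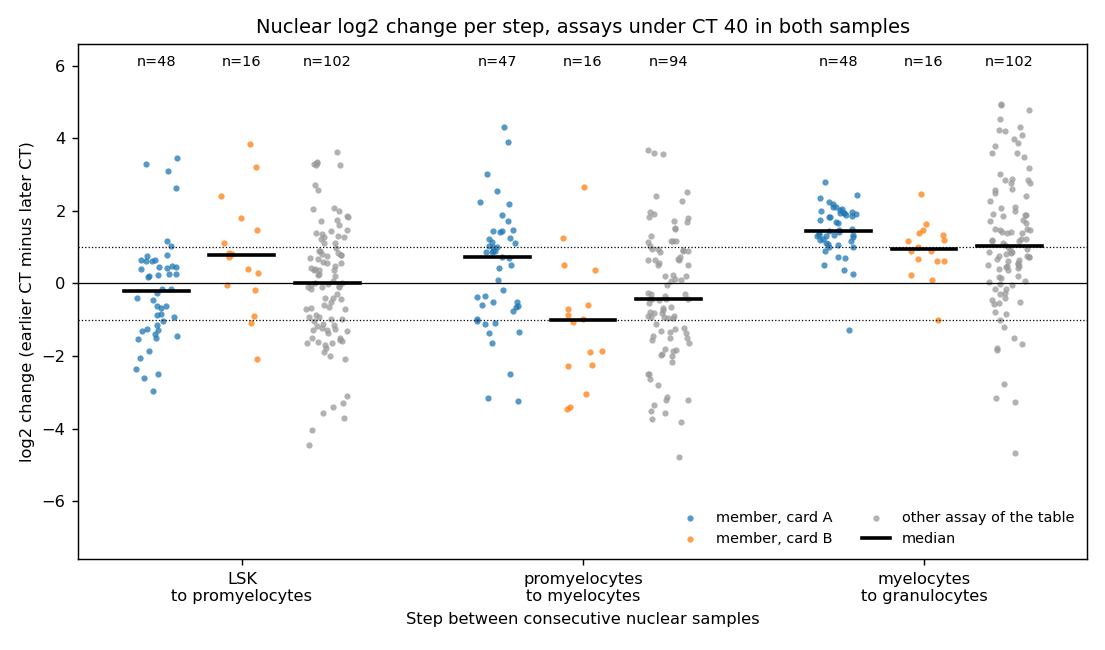
Log2 change of each assay between consecutive nuclear samples (y axis), for members on card A, members on card B and all other assays under CT 40 in both samples, with medians as bars and the 2-fold limits dotted. Members of card A had medians of -0.21, 0.74 and 1.46 over the 3 steps and members of card B 0.77, -1.01 and 0.95, while the last step lifted all 3 groups.

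The array card moved with these results. Over all 49 members of card A the median log2 change was -0.15, 0.74 and 1.44 at the 3 steps, and over the 17 of card B it was 0.81, -1.06 and 0.90. At the step to myelocytes 20 members were higher and 10 lower on card A, against 2 higher and 9 lower on card B. Over all 157 assays under 40 in both samples, of either card, 26.1% were higher and 30.6% lower. The shares over all assays of each card were not computed, so the contrast is not shown to be particular to the members. 9 of the 12 members with their lowest CT in promyelocytes are on card B. The cards are primed by separate reverse transcription pools, and they hold different miRNAs, so card and miRNA cannot be told apart.

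Both myeloid miRNAs that are members had a lower CT at each later stage. miR-223, which restrains the expansion and activation of neutrophils, was at 26.38, 23.75, 22.29 and 20.35. Each stage was lower in CT than the one before, and from LSK to granulocytes the log2 change was 6.03, a 65.4-fold rise to the lowest nuclear CT of any member. This change was 4.98 after centring on the members, 4.01 after centring each card and 7.18 on the reference assays, a rise of 31.5-fold, 16.1-fold and 145-fold. miR-142-3p, found in all blood lineages, was at 27.18, 26.73, 25.28 and 23.42. Its steps were 0.46, 1.44 and 1.87, so that most of its gain came after the promyelocyte. Under each scaling the change of miR-223 and miR-142-3p stayed above 0 at every step. miR-142-5p, from the other arm of the same hairpin, did not reach the limit in any nuclear sample and had its lowest CT, 31.51, in granulocytes.

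The list of miRNAs linked to stem and progenitor cells had 11 named members among 14, and 5 of them were under 30 in a nuclear sample. At the step to promyelocytes 5 of 5 were lower by 2-fold or more, with a median log2 change of -2.36 that stayed below -2 under each scaling. The share over all assays was 27.7%, and 3 of the 5, miR-126-3p, miR-155 and miR-196b, are members through LSK alone, so the CT limit itself favours a fall from LSK. The list was also chosen with these patterns known, so its direction is a description. miR-155, which drives expansion of myeloid progenitors, was at 28.35, 30.21, 33.44 and 34.72. It was lower at every step, by a total of -6.37 on the log2 scale, and this order held under each scaling. miR-126-3p was at 27.99, 30.96, 32.59 and 30.23, so it reached its highest CT in myelocytes and regained part of the loss in granulocytes. miR-146a was at 28.64, 30.99, 30.89 and 29.88, with its loss made at the first step. miR-222, which targets cKit mRNA, was at 26.08, 27.53, 28.28 and 27.54 and was the only one of the 5 under 30 throughout.

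miR-196b ended in undetermined wells. It was at 28.85, 31.47, 40 and 40, where 40 is the value listed for a well without a result. Its cytoplasmic CT was 25.14, 29.38, 33.65 and 32.72 in the same order. Its step to myelocytes, -8.53, rests on the listed value. miR-135b ran the opposite way at 40, 40, 31.69 and 29.69, and its cytoplasmic CT was 32.48, 34.57, 29.30 and 26.42. miR-696 was the third member listed at 40, at 40, 29.80, 40 and 40. Its cytoplasmic CT was 40 at all 4 stages and its whole cell CT was 30.11 in promyelocytes and 40 elsewhere, so its place among the members rests on 1 nuclear well.

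The 6 members with the miR-17 seed, known as promoters of cell growth, differed in course. miR-17 was at 25.16, 24.50, 25.58 and 24.25. miR-106a was at 25.97, 25.72, 26.35 and 25.65, and miR-20a was at 26.80, 26.04, 27.36 and 26.31. These 3 had their highest CT in myelocytes and stayed within 1.33 cycles over all stages. miR-20b was at 29.30, 30.80, 33.97 and 31.93, lowest in CT in LSK and falling away by 4.66 cycles to the myelocyte. It is a member through LSK alone, so the CT limit favours its fall from that stage. miR-93 was at 29.38, 28.22, 27.80 and 26.45 and miR-106b was at 30.08, 29.89, 29.18 and 27.80. Both gained at every step on the unscaled CT. The first step of miR-106b turned to -0.063 after centring on the members, -0.0215 after centring each card and -0.042 on the reference scale. The second step of miR-93 turned to -0.041 after centring each card. The change to myelocytes thus ran over the 6 from -3.16 (miR-20b) to 0.71 (miR-106b), with a median of -0.85 that turned to 0.55 on the reference scale. Towards the granulocyte 5 of the 6 were higher by 2-fold or more, beside 60.8% of all assays, with a median of 1.34, which fell to 0.041 after centring on the members and to 0 after centring each card.

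The members with this seed lie in 3 gene clusters, each transcribed as a unit, and the clusters can be set side by side. miR-17, miR-19a, miR-20a, miR-19b and miR-92a lie within 813 bases on chromosome 14 (chr14:115043684-115044496, + strand). Their changes at the step to myelocytes were -1.08, -1.03, -1.33, -1.36 and -0.50 in that order, all below 0, and on the reference scale the 5 turned above 0, from 0.05 for miR-19b to 0.91 for miR-92a. The miR-19 pair had a median of -1.20, which turned to 0.21 there. A cluster on chromosome X (chrX:52741854-52742563, - strand, 710 bases) holds miR-106a and miR-20b and second copies of miR-19b and miR-92a, and the first 2 changed by -0.63 and -3.16. miR-20b is a member through LSK alone and was above a CT of 30 in both samples of this step. The cluster on chromosome 5 (chr5:138165332-138165807, - strand, 476 bases) holds miR-106b, miR-93, miR-93* and miR-25, with changes of 0.71, 0.42, 0.52 and -0.17. The miR-19 pair was close in course, at 24.64, 24.21, 25.58 and 24.48 for miR-19b. For miR-19a the values were at 27.51, 26.90, 27.93 and 26.81. miR-92a was at 26.05, 26.32, 26.82 and 26.44, within 1 cycle throughout, and miR-25, of the same seed, was at 31.16, 30.94, 31.11 and 29.95 and reached the limit in granulocytes alone.

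The miR-16 family, here miR-15b, miR-16, miR-195 and miR-322, gained at the later steps. These miRNAs restrain the cell cycle and BCL2. miR-16 was at 25.98, 25.80, 24.07 and 22.58. miR-15b was at 29.09, 28.83, 27.61 and 26.37, and miR-195 was at 31.31, 30.69, 29.59 and 27.65. These 3 were lower in unscaled CT at each stage than at the one before. The first step of miR-16, 0.18, turned to -0.08 after centring on the members, -0.04 after centring each card and -0.06 on the reference scale. miR-322, a relative whose sequence was not matched, was at 32.002, 33.38, 31.50 and 29.74, highest in CT in promyelocytes and under 30 in granulocytes alone. At the step to myelocytes 4 of 4 were higher by 2-fold or more, beside 26.1% of all assays, with a median log2 change of 1.47. The median was 1.01 after centring each card and larger on the other scales. After centring each card 2 of 4 were higher by 2-fold or more, miR-16 at 1.26 and miR-322 at 1.41, while miR-15b was at 0.75 and miR-195 at 0.64. In granulocytes 4 of 4 were again higher, beside 60.8% of all assays, with a median of 1.63, which became 0.33 after centring on the members and 0.29 after centring each card, and miR-15b turned to -0.061 and -0.10 on those scales. miR-15a and miR-497 of this family were named and did not reach the limit.

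The miR-26, miR-29 and miR-30 families had their highest CT in promyelocytes. miR-26a, which targets Ezh2 mRNA, was at 27.53, 28.80, 27.64 and 25.82, and miR-26b was at 28.83, 30.13, 27.94 and 26.03. On the unscaled CT both were highest in promyelocytes and lowest in granulocytes. miR-29a was at 27.25, 28.40, 27.52 and 25.69 and miR-29c was at 29.501, 31.56, 30.70 and 27.91. These miRNAs, known for restraining collagen and DNA methyltransferase mRNAs, took the same course. After centring each card the steps were -1.48, 0.69 and 0.48 for miR-26a and -1.37, 0.42 and 0.49 for miR-29a. For miR-29c they were -2.28, 0.40 and 1.45. On that scale miR-26a, miR-29a and miR-29c were most abundant in LSK and not in granulocytes. At the first step 2 of 2 were lower in each of these families, beside 27.7% of all assays, with median log2 changes of -1.28 (miR-26) and -1.61 (miR-29), and both stayed below -1 under each scaling. The following steps were above 0 for both families under each scaling, with medians of 1.67 and 1.87 for miR-26 and 0.87 and 2.31 for miR-29. Among the 4 nuclear members of the miR-30 family, miR-30b was at 28.03, 28.96, 27.54 and 26.07 and miR-30c was at 28.04, 28.44, 27.54 and 26.19. miR-30e was at 28.97, 30.25, 28.998 and 27.99, and miR-30a was at 30.75, 31.60, 30.72 and 28.77. Promyelocytes were again highest in CT in all 4, and the first step had a median of -0.89 with 1 of 4 lower by 2-fold or more, which is near the 27.7% of all assays. At the step to granulocytes 4 of 4 were higher, beside 60.8% of all assays, with a median of 1.41, which became 0.11 after centring on the members and 0.071 after centring each card, with miR-30e at -0.29 and -0.33.

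The let-7 family, which restrains RAS and MYC mRNAs, had its highest CT in myelocytes. 6 of its 8 listed miRNAs were named and 3 reached the limit. let-7g was at 28.56, 28.09, 28.73 and 26.63. let-7i was at 29.56, 28.90, 30.01 and 28.82, and let-7e was at 27.66, 28.52, 29.04 and 27.75. At the step to myelocytes 1 of 3 was lower by 2-fold or more, let-7i, which is near the 30.6% of all assays, and the median of -0.64 became -1.11 after centring each card and 0.77 on the reference scale. In granulocytes 3 of 3 were higher than in myelocytes, beside 60.8% of all assays, with a median of 1.30, which fell to 0 and -0.041 after centring on the members and on each card. let-7d stayed just above the limit at 30.33, 30.72, 31.15 and 30.76. Of the miR-23/24/27 clusters, miR-24 was at 26.25, 26.86, 26.35 and 25.05, close to level over the first 3 stages, and miR-27a, which lies beside 1 of the 2 miR-24 genes (chr8:84208727-84208896, + strand), was at 32.72, 29.27, 30.25 and 28.82.

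**Figure D3:**
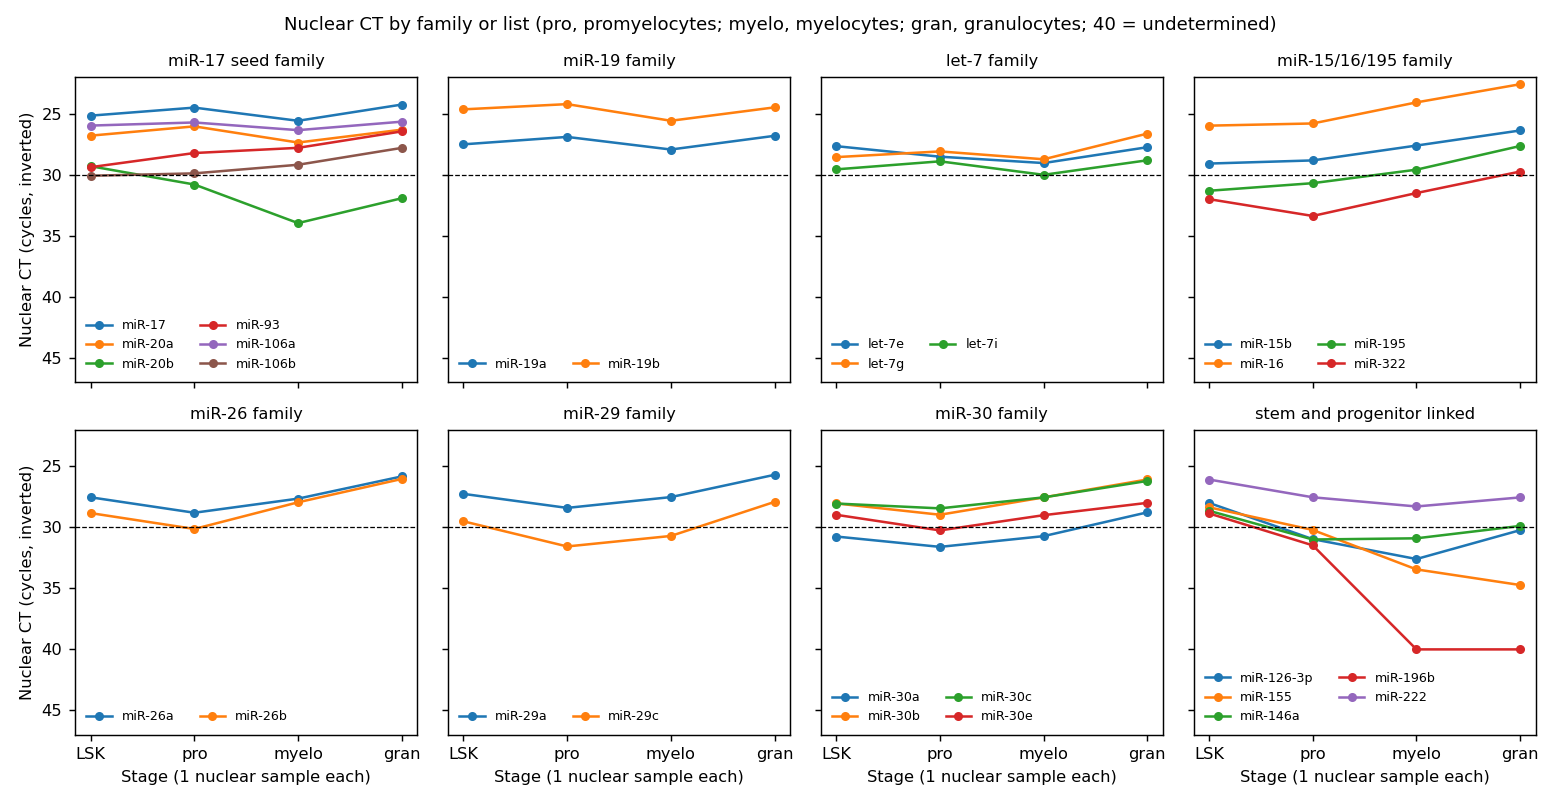
Nuclear CT (inverted y axis) by stage for the nuclear members of 8 families or lists, 1 sample per stage, with the limit of 30 dashed and 40 standing for an undetermined well. In the miR-26, miR-29 and miR-30 families the promyelocyte sample sits lowest, and the miR-16 family climbs from promyelocytes on. In the miR-17 seed family miR-20b, a member through LSK alone, parts from the others.

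In 4 hairpins both arms were members. On the unscaled CT miR-30e and miR-30e* had the same sign at every step, with changes of -1.28 and -0.89 at the first step, 1.25 and 1.25 at the second and 1.01 and 1.65 at the third, where centring each card gave -0.33 and 0.96. miR-340-5p and miR-340-3p, both on card A, changed by 0.49 and -1.02, then 0.74 and 3.89, then 2.44 and 1.96. The arms of miR-15b parted at the first step, at 0.26 for miR-15b and 3.85 for miR-15b*. Those of miR-93 parted as well, at 1.16 and -1.08. In each of these last 2 hairpins the arms are on different cards, as are those of miR-30e, and the part of the card was not tested.

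The 6 miRNAs that the study took as nuclear candidates were all members. By single RT-qPCR the study then found miR-706, miR-709 and miR-690 enriched in nuclei at every stage, against cytoplasmic control miRNAs. It found miR-467a* enriched in LSK and promyelocytes only, and miR-135a* and miR-142-3p in no myeloid population. miR-709, known to bind the primary transcript of miR-15a and miR-16 in mouse nuclei, was at 21.55, 21.26, 22.23 and 20.89, among the most abundant at every stage. miR-690 was at 25.35, 24.23, 25.11 and 25.02, lowest in CT in promyelocytes and nearly level elsewhere. miR-706 was at 28.09, 26.62, 28.88 and 28.20, again lowest in promyelocytes, with a step to myelocytes of -2.26. miR-467a* was at 29.66, 28.82, 31.86 and 30.66 and fell by 3.04 on the log2 scale from promyelocytes to myelocytes. miR-135a* was at 29.34, 29.38, 29.01 and 28.11, within 1.26 cycles over the stages. The sixth is miR-142-3p, given above. Over the 6 the step to promyelocytes had a median of 0.65, which turned to -0.14 when each card was centred, since 5 of the 6 are on card B. The step to myelocytes had a median of -0.92, which turned to 0.049 on that scale and to 0.49 on the reference scale, and the step to granulocytes had 1.05, which turned to -0.25 after centring on the members.

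4 members are entries that were later removed from miRBase. miR-699 was at 24.26, 26.34, 28.20 and 29.21, the second lowest member CT in LSK after miR-709 and with a higher CT at each later stage. miR-720, which matches a tRNA fragment, was at 27.30, 25.48, 26.18 and 25.56, and miR-801, which matches a U11 spliceosomal RNA, was at 28.55, 26.13, 27.18 and 26.28. Both were highest in CT in LSK. miR-805 is given above. Without these 4 entries 62 members remained and the median at the step to myelocytes was 0.39 in place of -0.038.

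miR-191, common in blood cells, was at 25.46, 25.07, 25.41 and 24.52 and was among the 3 steadiest members. miR-484 was at 27.32, 28.002, 26.98 and 25.08, miR-140 was at 28.76, 29.21, 28.20 and 26.14 and miR-149 was at 34.50, 31.29, 28.63 and 28.40. miR-484 and miR-140 had their highest CT in promyelocytes, and miR-149 gained 6.10 in all. miR-340-5p was at 31.08, 30.59, 29.85 and 27.41 and miR-301b was at 33.35, 30.26, 30.85 and 28.65. miR-744 was at 31.62, 32.25, 30.01 and 28.32, and like the former pair it was lowest in CT in granulocytes. miR-328 was at 29.98, 31.49, 30.02 and 28.73, highest in CT in promyelocytes like the miR-26 family. miR-378, from an intron of the gene for the coactivator PGC-1beta, was at 28.04, 28.21, 30.09 and 28.93 and was highest in CT in myelocytes. miR-301a, miR-148a, miR-340-3p, miR-93* and miR-30e* each had their lowest CT, between 28.99 and 29.96, in granulocytes.

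The limit of 30 decided membership for a number of assays. 11 members had their lowest nuclear CT just under 30, namely miR-15b* (29.52), miR-150 (29.56), miR-340-3p (29.69), miR-135b (29.69), miR-322 (29.74), miR-696 (29.80), miR-760 (29.81), miR-30e* (29.81), miR-494 (29.87), miR-25 (29.95) and miR-148a (29.96). Just outside, 9 named assays lay just above 30: miR-135a (30.06), miR-221 (30.10), miR-203 (30.12), miR-200c (30.23), miR-877* (30.26), let-7d (30.33), miR-467a (30.38), miR-103 (30.39) and miR-425 (30.46). The edge falls within less than 1 cycle of many assays, and a limit of 28 kept 37 miRNAs and a limit of 32 kept 110.

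The nuclear changes were set beside those in the cytoplasm of the same cells. From LSK to promyelocytes the median log2 change of the members under 40 in both fractions was -1.17 in cytoplasm, with 4 higher and 37 lower (57.8%) by 2-fold or more beside 7.24% and 57.9% of all 152 assays under 40 in the same samples, and 0.76 in whole cell RNA. The nuclear change exceeded the cytoplasmic one by 1 or more in 42 of 64 members and fell short by as much in 1, miR-699, which is 65.6% and 1.56% beside 56.6% and 5.92% of all 152 assays. From promyelocytes to myelocytes the cytoplasmic median was 1.25, and the nuclear change fell short by 1 or more in 33 of 63, 52.4% beside 53.0% of all 149 assays. From myelocytes to granulocytes the cytoplasmic median was 0.22, and the nuclear change exceeded it by 1 or more in 41 of 64, 64.1% beside 58.4% of all 161 assays. The offset between the fractions was thus found over the whole table. Pearson's r between nuclear and cytoplasmic change was 0.78, 0.82 and 0.44 at the 3 steps, over 64, 63 and 64 miRNAs that share samples and cards.

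**Figure D4:**
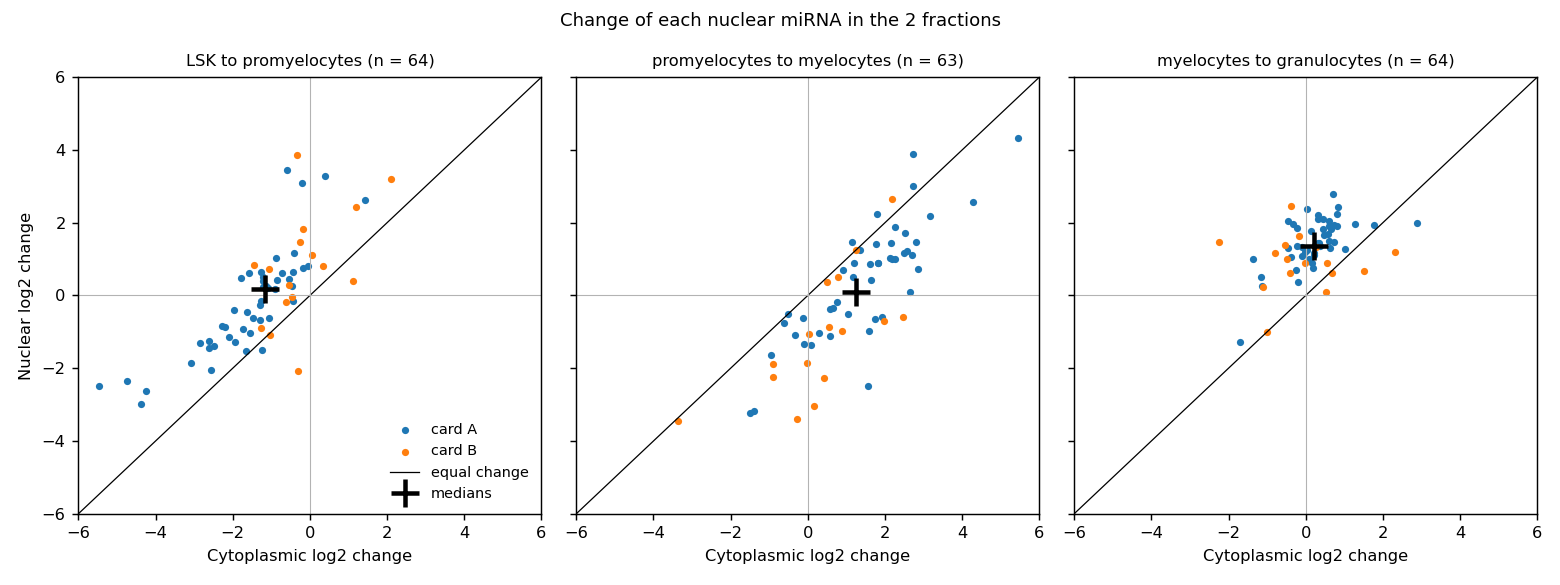
Nuclear log2 change (y axis) against cytoplasmic log2 change (x axis) of the members under CT 40 in both fractions, at each step, with the line of equal change and the medians as a cross. The cloud lies above the line at the first and last steps and below it at the step to myelocytes, with cytoplasmic medians of -1.17, 1.25 and 0.22.

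Some members departed from this common offset. At the first step miR-699 changed by -2.08 in the nucleus and -0.30 in cytoplasm, while miR-15b* changed by 3.85 and -0.32, and miR-27a by 3.46 and -0.58. At the second step miR-494 changed by -2.49 in the nucleus and 1.55 in cytoplasm, and miR-467a* by -3.04 and 0.17. Of these, miR-494 is a member through promyelocytes alone, so the CT limit favours its nuclear fall after that stage. For miR-340-3p the nuclear change was the greater, at 3.89 and 2.73. At the last step miR-805 changed by 1.46 in the nucleus and -2.25 in cytoplasm, and miR-374 by 2.45 and -0.38. Except for miR-699, at least 1 of the nuclear wells behind each of these changes was above a CT of 28.

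The most abundant nuclear miRNAs were largely those most abundant in cytoplasm. Of the 66 named assays with the lowest cytoplasmic CT 56 were members. The 10 that were not include miR-126-5p, miR-21, miR-203, miR-101b and miR-466d-3p. miR-21 had a lowest cytoplasmic CT of 26.09 and nuclear values of 32.20, 32.28, 35.08 and 31.28. miR-466d-3p was at 26.48 in LSK cytoplasm and listed at 40 in every nuclear sample. The 10 members from further down the cytoplasmic order were miR-301a, miR-25, miR-706, miR-148a, miR-322, miR-135a*, miR-467a*, miR-494, miR-760 and miR-696.

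The distance between the fractions changed with the stage and moved with the shifts above. The members' nuclear CT exceeded the cytoplasmic CT by a median of 4.09 cycles in LSK and 3.82 in myelocytes, and by less, 2.76 and 2.54, in promyelocytes and granulocytes. A lower CT in the nucleus than in the cytoplasm was seen, among members under 40 in both fractions, for 3 in LSK and 5 in promyelocytes, and for 0 in either later stage. The same count over all assays was not made, so it is not known whether this is particular to the members. miR-696, with a cytoplasmic well at 40, made 6 in promyelocytes. 6 unnamed assays had a lower CT in nuclear than in cytoplasmic RNA at all 4 stages, 3 of them the last assays of card B, the reference used above. The gap of these 6 was 2.79 to 4.15 cycles in LSK, 5.27 to 6.87 in promyelocytes, 2.40 to 3.20 cycles at the myelocyte stage and 0.76 to 1.45 in the last sample. By these 6 assays the fractions were furthest apart in promyelocytes and closest in granulocytes, the sample in which 44 members had their lowest unscaled nuclear CT. The nuclear CT of the 6 changed by -0.47 to 0.16 on the log2 scale at the step to granulocytes. The part of the fractionation in the nuclear changes was not tested.

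**Figure D5:**
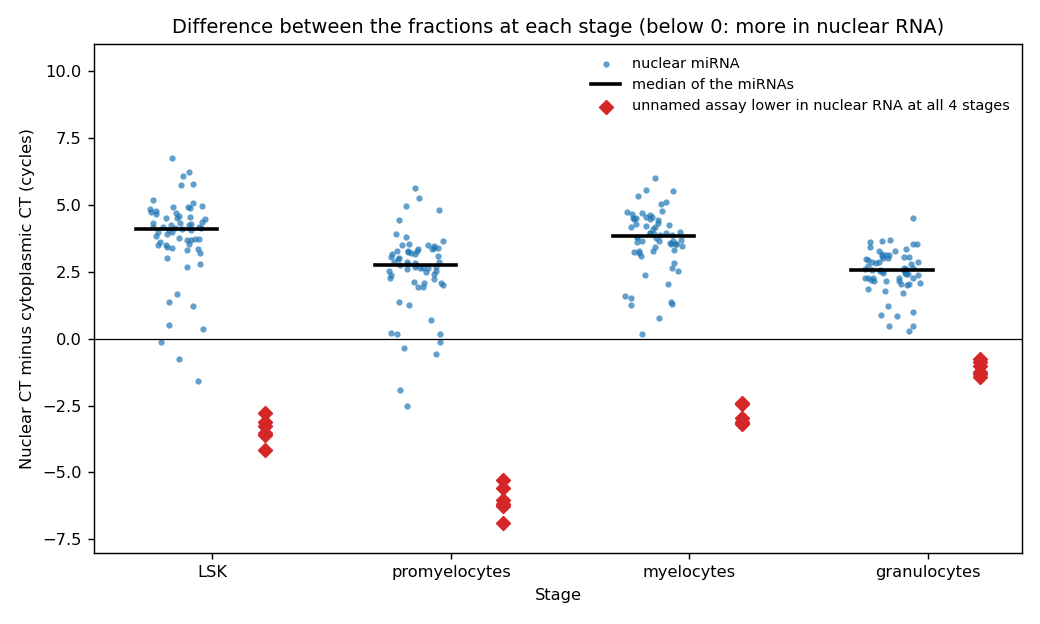
Nuclear CT minus cytoplasmic CT (y axis, cycles) at each stage for the members (points, median as bar) and for the 6 unnamed assays that were lower in nuclear RNA at all 4 stages (diamonds). Both groups sit closest to 0 in granulocytes, at a median of 2.54 for the members and from -0.76 to -1.45 for the 6 assays.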

How the data were processed

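The authors deposited unnormalized CT values for 12 samples, 4 of them nuclear RNA, read on the A and B cards of the TaqMan rodent miRNA set, each from 100 ng of RNA, with an undetermined well listed at 40. Per the labels the fractions were separated with the PARIS kit and the RNA was extracted with Trizol, and the authors called the CT with the instrument's software. Each assay is 1 well per sample, so no error of a CT can be given.

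Assays are numbered in the table. A name was assigned where the 8 nuclear and cytoplasmic CT values equalled those of a list in the study's supplement within 0.0005 cycles (246 assays), or where the whole cell differences lay on the line of a second list within 0.002 (23 more, 8 of them members). No assay received 2 names. The card was inferred from the number of decimals of the CT, 4 up to assay 377 and 3 after it. The members and lists were chosen with earlier results of these data known.

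Log2 changes are CT differences of unscaled values. A change of 2-fold or more means 1 cycle or more. The CT was compared on the scale as deposited, with 3 scalings and other limits as alternatives, and the counting was tested on simulated data. The miRNAs whose values are given in full are members under a CT of 25, the 4 largest changes in either direction per step among members under 35 in both samples, members listed at 40, members of the lists, and those next to the limit. Others were added to account for every member. Python 3.11.15 was used with pandas 2.3.3, numpy 2.4.6, matplotlib 3.10.9 and scipy 1.17.1. The study's mRNA arrays, cell lines and single RT-qPCR assays were not analysed here.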

Additional observations from a re-analysis of the deposited data

Results flagged for a closer look

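12 assays without a name read under CT 30 in some nuclear sample and were counted above only among all assays, apart from the 6 that were lower in nuclear RNA at all stages. 3 of them gave a result in a single nuclear sample and were listed at 40 in the other 3. Assay 279 read 15.85 in myelocytes, lower than any member in any nuclear sample, and 40 in all other 11 samples. Assay 270 read 21.98 in granulocytes and assay 275 read 25.86 there. The 6 unnamed assays with a lower nuclear than cytoplasmic CT at every stage had lowest nuclear values of 22.96 (assay 376), 18.62 (377), 24.14 (379), 22.57 (591), 18.35 (592) and 20.61 (the last of card B). The last 3 had their lowest value of 19.61 (assay 378), 29.24 (assay 572) and 26.20 (assay 587). No cause was tested.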

How the results depend on the processing

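Each stage is 1 well per assay and 1 sample, so the precision of any change is unknown, and values above a CT of 30 are the least certain. No paired analysis was possible because each stage and fraction has 1 sample, and for the same reason no sample could be left out. Of 109 values of the comparisons under alternatives 56 stayed within 1.5 times of the reported count or within 0.1 of the reported median, and the other 53 moved further. Among the 30 medians in these values 9 turned their sign. Of 122 single changes of 2-fold or more, 110 kept that size and direction at an efficiency of 1.9, 105 on the reference assays, 68 after centring on the members and 59 after centring each card. Centring on the members gave medians of -0.071, 0.46 and 0.046 at the 3 steps and 4 higher and 7 lower at the step to granulocytes. Centring each card gave medians of -0.36, 0.069 and 0.14, 8 higher at the first step, 14 higher at the second and 4 higher and 4 lower at the third. The reference assays gave medians of -0.050 and 1.37 at the first and second steps and 36 higher and 8 lower at the second. A CT limit of 28 left 37 members with 7 higher and 8 lower, then 12 and 9 with a median of 0.42, then 28 and 1. A limit of 32 gave 110 members with 29 and 31 and a median of 0.041, then 37 and 35 with -0.36, then 81 and 6 with 1.47. These counts moved because the number of members did. At a fold limit of 1.5 there were 22 higher at the first step, and at a fold limit of 3 there were 7 lower at the first, 10 higher at the second and 24 higher and 0 lower at the third. From myelocytes to granulocytes 1 was lower at an efficiency of 1.9 and 1 without the removed entries. The median at the step to myelocytes was -0.40 over all assays, named or not, and 0.39 without the removed entries. From LSK to granulocytes, where the scalings were added after seeing the data, centring on the members gave 23 higher and 16 lower with a median of 0.38 and 28 members most abundant in granulocytes, centring each card gave 16, 23, -0.24 and 20, and the reference assays gave 53, 5, 2.59 and 53. Of the 122 changes of 2-fold or more, 12, 12 and 6 turned their sign under the 3 scalings, 30 in all, and of the 76 smaller changes 20, 22 and 17 did. Centring on the members turned, from myelocytes to granulocytes, let-7i (-0.11), miR-146a (-0.28), miR-15b (-0.061), miR-19a (-0.17), miR-19b (-0.20), miR-20a (-0.24), miR-25 (-0.14), miR-30e (-0.29), miR-328 (-0.011), miR-15b* (-0.30), miR-378 (-0.13) and miR-467a* (-0.10). Centring each card turned let-7e (-0.041), let-7i (-0.15), miR-146a (-0.32), miR-15b (-0.10), miR-17 (-0.0091), miR-19a (-0.22), miR-19b (-0.24), miR-20a (-0.28), miR-24 (-0.038), miR-25 (-0.18), miR-30e (-0.33) and miR-328 (-0.052). The reference scale turned, from promyelocytes to myelocytes, let-7i (0.30), miR-17 (0.33), miR-19a (0.38), miR-19b (0.046), miR-20a (0.083) and miR-801 (0.35). These turns follow from the shift that each scaling adds to every change.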
